A study of Mus musculus with 29 samples.

Results

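The set described here holds 10 genes that set the transcription of lipid synthesis and sterol handling in liver: the sterol regulatory element-binding proteins (SREBPs) Srebf1 and Srebf2, their escort Scap, the retention proteins Insig1 and Insig2, the activating proteases Mbtps1 and Mbtps2, the carbohydrate response factor ChREBP (gene Mlxipl), and the liver X receptors LXRalpha (Nr1h3) and LXRbeta (Nr1h2). The members were chosen by name: they are the rows of the count table whose Ensembl identifier carries these symbols. All 10 were found among the 54532 rows, and all 10 were among the 15603 genes that passed the filter on low counts. They were measured by RNA-seq of polyadenylated RNA in 29 libraries from livers of obese male mice. In the K556R groups, hepatocytes expressed a form of the homeobox transcription factor Prox1 that cannot take up SUMO, the small protein modifier (Prox1_K556R in the labels), switched on by Cre recombination at 8 weeks of age. The WT groups are the wild-type controls. All 4 groups had the same diet, with 45% fat and 20% fructose, for 18 weeks, and livers were taken at zeitgeber time 15 to 17 after refeeding or in the fasted state. There were 8 K556R refed, 7 K556R fasted, 6 WT refed and 8 WT fasted libraries, split over 2 batches. The labels do not name the promoter or vehicle that delivered Cre, do not say whether controls carry Cre or the unrecombined allele, and do not say whether each library is a separate mouse, so p-values here cover library-to-library spread, which may be technical.

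SREBPs are made as precursors held in the membrane of the endoplasmic reticulum. Scap escorts them to the Golgi when sterols are low, the Insig proteins hold Scap back when sterols are high, and the site-1 and site-2 proteases, encoded by Mbtps1 and Mbtps2, cut the precursor so that its active part can enter the nucleus. In liver, SREBP-1c is known for the insulin-driven synthesis of fatty acids, SREBP-2 for cholesterol synthesis and uptake, ChREBP for the response to glucose and fructose, and the LXRs, which bind oxysterols with RXR partners, for cholesterol efflux and for transcription of Srebf1. Much of this control acts on the proteins. The values below are transcript levels, as read counts scaled to library size (CPM, with TMM factors), and say nothing of how much precursor was cut or how much factor was in the nucleus.

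Promoter sequences are shown for Srebf1, Insig1 and Mlxipl, whose transcripts rose with refeeding in both genotypes, and for Srebf2, which did not pass the test, for contrast. They run from 250 bases before to 50 bases after the start, 5′ to 3′, and come from RefSeq on build GRCm38.p6. All 10 members had an entry in this collection, with 17 starts in all. The capitals mark matches to TCACNCCAC, the 9 letters of a sterol regulatory element, to its core letters TCACNCCA, or to CACGTG, an E-box.
Srebf1, downstream start, chr11:60210422-60210721, minus strand: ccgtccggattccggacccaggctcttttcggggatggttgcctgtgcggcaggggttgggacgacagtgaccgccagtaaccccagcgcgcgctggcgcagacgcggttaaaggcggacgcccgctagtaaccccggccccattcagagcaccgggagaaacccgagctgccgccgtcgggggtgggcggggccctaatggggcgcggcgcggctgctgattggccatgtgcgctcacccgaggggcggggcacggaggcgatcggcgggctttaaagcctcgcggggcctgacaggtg
Srebf2, chr15:82147019-82147318, plus strand: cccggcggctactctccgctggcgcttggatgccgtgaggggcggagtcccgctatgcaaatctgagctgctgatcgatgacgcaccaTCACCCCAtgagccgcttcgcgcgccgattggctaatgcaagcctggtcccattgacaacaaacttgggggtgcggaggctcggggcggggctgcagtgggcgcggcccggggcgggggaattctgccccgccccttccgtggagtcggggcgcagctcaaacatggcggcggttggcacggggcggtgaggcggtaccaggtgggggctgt
Insig1, chr5:28071162-28071461, plus strand: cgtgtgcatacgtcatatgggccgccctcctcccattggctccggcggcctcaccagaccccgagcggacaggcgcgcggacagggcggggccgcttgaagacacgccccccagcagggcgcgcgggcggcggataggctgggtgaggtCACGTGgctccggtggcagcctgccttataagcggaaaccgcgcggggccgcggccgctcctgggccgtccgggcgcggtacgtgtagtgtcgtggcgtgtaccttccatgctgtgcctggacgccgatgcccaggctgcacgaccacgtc
Mlxipl, upstream start, chr5:135089640-135089939, plus strand: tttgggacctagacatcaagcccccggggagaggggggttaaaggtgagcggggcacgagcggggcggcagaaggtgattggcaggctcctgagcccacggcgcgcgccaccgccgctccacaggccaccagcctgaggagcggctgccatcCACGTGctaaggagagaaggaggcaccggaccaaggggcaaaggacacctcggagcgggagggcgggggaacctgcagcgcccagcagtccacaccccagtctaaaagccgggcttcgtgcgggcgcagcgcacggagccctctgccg
Mlxipl, downstream start, chr5:135106641-135106940, plus strand: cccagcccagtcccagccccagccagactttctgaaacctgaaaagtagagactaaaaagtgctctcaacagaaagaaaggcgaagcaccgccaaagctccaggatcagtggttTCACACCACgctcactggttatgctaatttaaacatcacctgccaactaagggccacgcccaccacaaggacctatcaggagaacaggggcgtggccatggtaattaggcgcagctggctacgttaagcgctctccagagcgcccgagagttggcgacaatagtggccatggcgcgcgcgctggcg
As background, the downstream start of Srebf1 gives SREBP-1c, the downstream start of Mlxipl gives full-length ChREBP-alpha, and its upstream start gives the shorter ChREBP-beta. The 9 letters TCACNCCAC were found at the downstream Mlxipl start, at bases -136 to -128, and at no other member start. They occurred in 1.24% of 32851 RefSeq promoters of the same length, searched on both strands. The shorter TCACNCCA, added after the sequences had been read, overlaps that match and was also found upstream of Srebf2, at -162 to -155, against 4.36% of all promoters. CACGTG lay at -101 to -96 of Insig1, at -98 to -93 of the upstream Mlxipl start and once near the Scap starts, against 7.15% of all promoters. CCAAT, in either orientation, was present at the printed Srebf1 start (-30 to -26), in Srebf2 (-135 to -131), in Insig1 (-216 to -212) and at the upstream Mlxipl start (-173 to -169), as well as at an Insig2 and an upstream Srebf1 start, against 37.4% of all promoters. The consensus LXR direct repeat, found in 0.0152% of all promoters, was found at no member start. These matches describe letters in a window and not binding sites.

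Refeeding changed 4 of the 10 members in K556R livers and 4 of the 10 in WT livers, and Srebf1, Insig1 and Mlxipl rose in both genotypes. Over all genes tested, 15.4% were called for refeeding in K556R livers and 10.7% in WT livers. Srebf1 rose 4.21-fold in K556R livers and 2.75-fold in WT livers, and Insig1 rose 2.69-fold in K556R livers and 2.42-fold in WT livers. Mlxipl rose by smaller amounts, 1.41-fold in K556R livers and 1.37-fold in WT livers, and lost its call in both genotypes with no batch term and with the replicate number as a block. Mbtps1 fell 1.13-fold in K556R livers, and Nr1h3 rose 1.14-fold in WT livers. Srebf2, Scap, Insig2, Mbtps2 and Nr1h2 did not pass the test for refeeding in either genotype. In WT livers the count was 2 of 10, Srebf1 and Insig1, with no batch term, in batch 2 alone and with the replicate block. No member passed the test between the genotypes in the fasted or the refed state. Calls throughout are adjusted p-values below 0.05 from the edgeR quasi-likelihood test with Benjamini-Hochberg adjustment over all 15603 genes, in a model with a term for batch.

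**Figure D1:**
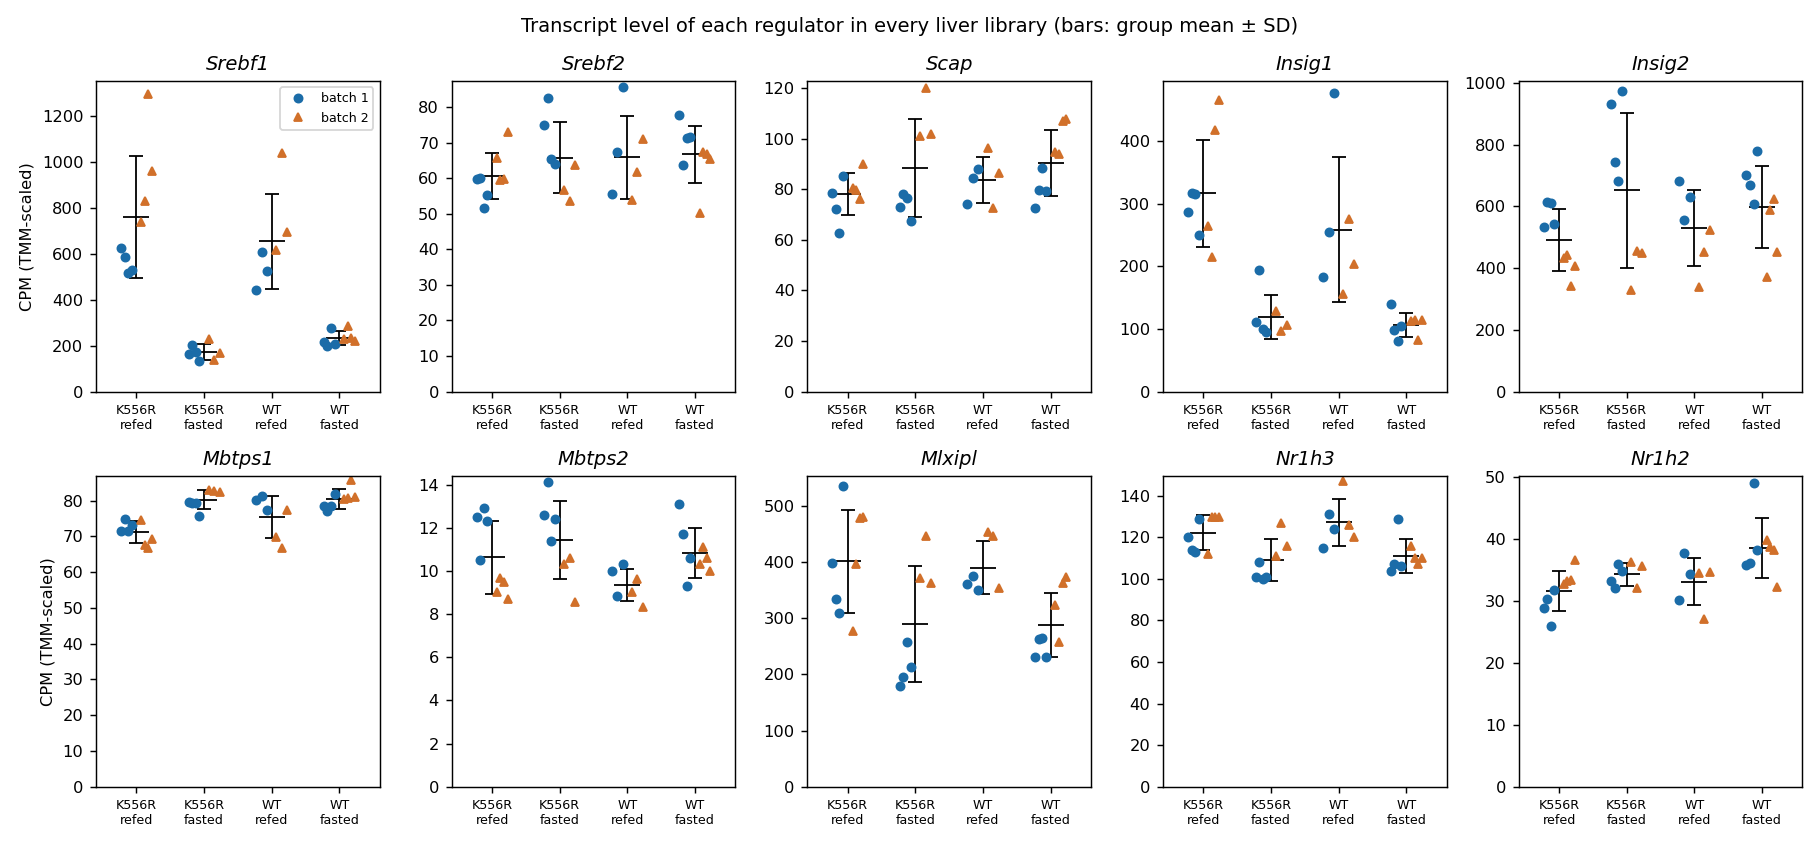
Level of each of the 10 regulators, in TMM-scaled CPM on a linear axis that starts at 0, in every library of the 4 groups. Circles are batch 1 and triangles batch 2, and the black bars give the group mean and SD. Srebf1 and Insig1 stood higher in every refed than in every fasted library of the same genotype. How many of all genes separate in this way was not counted.

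Library totals ran from 14385218 to 27278251 counts. Hepatocyte markers (Alb, Apoa1, Ttr, Hnf4a, Cps1 and Cyp2e1) summed to 61203 to 110215 CPM, and all 6 were detected in the liver libraries as labelled. Summed macrophage markers ran from 189 to 746 CPM, cholangiocyte markers from 42.5 to 176 CPM, stellate and fibroblast markers from 176 to 474 CPM, endothelial markers from 94.1 to 196 CPM, proliferation markers from 4.48 to 35.0 CPM, lymphocyte markers from 1.59 to 11.8 CPM and neutrophil markers from 0.58 to 5.24 CPM. Of 5 adipocyte markers, Adipoq, Plin1, Retn and Lep were under the filter. The remaining marker, Cfd, passed it and ran from 0.991 to 28.8 CPM. Its median was 2.96 CPM in K556R refed, 4.26 in K556R fasted, 6.20 in WT refed and 9.95 in WT fasted livers. With refeeding in K556R livers, 2 of 6 hepatocyte markers were called lower and 1 of 8 stellate and fibroblast markers higher, against 15.4% of all genes called. In WT livers 0 markers of these lists were called. For these bulk samples, fewer cells of a type and less RNA per cell cannot be told apart. Prox1 itself averaged 150 ± 25.5 CPM in K556R refed (n = 8), 186 ± 12.3 CPM in K556R fasted (n = 7), 164 ± 22.7 CPM in WT refed (n = 6) and 174 ± 13.0 CPM in WT fasted livers (SD, n = 8). It was not called between the genotypes in either state (adjusted p = 0.707 refed and 0.807 fasted, edgeR quasi-likelihood test). With refeeding it fell by 0.31 on the log2 scale in K556R livers (edgeR adjusted p = 0.0119) and was -0.09 in WT livers (edgeR adjusted p = 0.634). The difference between these responses was -0.23 (SE 0.125) and was not called. A gene-level count cannot show a point mutation, so it does not check the genotype labels. The feeding labels were met by known feeding genes: Angptl8, an insulin-induced lipase regulator, rose by 3.30 on the log2 scale in K556R livers and by 2.40 in WT livers, and Pck1, the gluconeogenic enzyme of fasting, fell by 1.65 in K556R livers and by 1.53 in WT livers.

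Srebf1 (ENSMUSG00000020538, chromosome 11, 60199089 to 60222581 on GRCm38, minus strand) encodes SREBP-1a and SREBP-1c from separate starts, which a count over the whole gene cannot separate. In batch 1, the K556R refed libraries had 625, 586, 515 and 530 CPM and the K556R fasted libraries had 164, 201, 171 and 132 CPM. In batch 2, the K556R refed libraries had 738, 829, 1294 and 961 CPM and the K556R fasted libraries had 227, 139 and 169 CPM. Every refed library lay above every fasted library in both batches, and the refed libraries of batch 2 were all above those of batch 1. In WT livers, batch 1 gave 442, 609 and 526 CPM refed and 214, 200, 275 and 209 CPM fasted. Batch 2 gave 618, 1038 and 695 CPM in WT refed livers and 228, 286, 234 and 220 CPM in WT fasted livers. The WT groups did not overlap either. For this and the other members, the share of all genes whose groups separate in this way was not counted. Within a batch, separation also occurred for members that were not called, such as Srebf2 and Nr1h2 in batch 1 of K556R livers. By the edgeR quasi-likelihood test, the refeeding log2 fold change of Srebf1 was 2.07 (SE 0.154, adjusted p = 1.07e-10) in K556R livers. In WT livers it was 1.46 (SE 0.151, edgeR adjusted p = 1.06e-07). Fitted in each batch alone, it was 1.77 in batch 1 and 2.40 in batch 2 for K556R livers, and 1.24 in batch 1 and 1.69 in batch 2 for WT livers. Srebf1 was called in both genotypes in all 29 fits that each left out 1 library.

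Srebf2 (ENSMUSG00000022463, chromosome 15, 82147181 to 82205379, plus strand) encodes SREBP-2, the sterol-responsive form. It ran from 51.7 to 73.1 CPM (median 59.8) in K556R refed, from 53.7 to 82.7 CPM (median 63.9) in K556R fasted, from 53.9 to 85.6 CPM (median 64.6) in WT refed and from 50.3 to 77.7 CPM (median 67.1) in WT fasted livers. All 4 groups overlapped. The refeeding log2 fold change was -0.10 (95% interval -0.30 to 0.09) in K556R livers and -0.02 (-0.22 to 0.19) in WT livers. The intervals exclude a change of the size seen for Srebf1. The K556R value was -0.33 in batch 1 and 0.13 in batch 2, so its sign differed between batches. The edgeR test of that difference gave an adjusted p of 0.112.

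Insig1 (ENSMUSG00000045294, chromosome 5, 28071363 to 28078662, plus strand) holds the SREBP and Scap complex in the endoplasmic reticulum and is itself a known SREBP target. K556R refed livers had 287, 317, 316 and 250 CPM in batch 1 and 264, 215, 418 and 466 CPM in batch 2. K556R fasted livers had 111, 194, 99.6 and 95.1 CPM in batch 1 and 129, 97.0 and 107 CPM in batch 2. The lowest refed library (215 CPM) was above the highest fasted library (194 CPM), which itself stood apart from the other K556R fasted libraries. WT refed livers had 183, 255 and 476 CPM in batch 1 and 155, 276 and 204 CPM in batch 2. WT fasted livers had 140, 98.6, 80.9 and 104 CPM in batch 1 and 112, 115, 82.5 and 115 CPM in batch 2, and again no refed library overlapped a fasted library. The refeeding log2 fold change was 1.43 (SE 0.204, adjusted p = 1.07e-05) in K556R livers and 1.28 (SE 0.205, adjusted p = 9.98e-05) in WT livers (edgeR). It was 1.24 in batch 1 and 1.60 in batch 2 of K556R livers, and 1.54 in batch 1 and 0.99 in batch 2 of WT livers. It was called in both genotypes in all 29 fits with 1 library left out.

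Insig2 (ENSMUSG00000003721, chromosome 1, 121304353 to 121332589, minus strand), the related retention protein, is known in mouse liver for a fasting-induced transcript from a start of its own, which these counts cannot separate. It ran from 342 to 613 CPM (median 488) in K556R refed and from 329 to 974 CPM (median 682) in K556R fasted livers. It ran from 340 to 682 CPM (median 540) in WT refed and from 370 to 779 CPM (median 615) in WT fasted livers. The groups overlapped in both genotypes. The refeeding log2 fold change was -0.32 (SE 0.123, adjusted p = 0.0805, edgeR) in K556R livers and -0.18 (SE 0.128, adjusted p = 0.431) in WT livers. In batch 1 the K556R refed libraries, at 534, 613, 612 and 542 CPM, were all below the K556R fasted libraries, at 931, 743, 682 and 974 CPM, with a log2 fold change of -0.52 and an edgeR adjusted p of 0.00926. In batch 2 the K556R value was -0.04, and the groups overlapped. Without K556R fasted replicate 1 of batch 2, at 329 CPM, the K556R value was -0.40 and passed (edgeR adjusted p = 0.0179). The refeeding values of Insig1 and Insig2 thus had opposite signs in both genotypes, and of these Insig1 alone passed the test.

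Scap (ENSMUSG00000032485, chromosome 9, 110333288 to 110384950, plus strand), the sterol-sensing escort, ran from 62.7 to 90.0 CPM (median 79.1) in K556R refed, from 67.3 to 120 CPM (median 78.3) in K556R fasted, from 72.5 to 96.4 CPM (median 85.5) in WT refed and from 72.5 to 108 CPM (median 91.3) in WT fasted livers. The groups overlapped, and the log2 fold change was -0.18 (adjusted p = 0.159) in K556R livers and -0.10 (adjusted p = 0.542) in WT livers by the edgeR test. In batch 2 alone, the K556R refed libraries, at 80.4, 79.6, 76.0 and 90.0 CPM, were below the K556R fasted libraries, at 101, 120 and 102 CPM, and the value of -0.42 was called (edgeR adjusted p = 0.0141). In batch 1 the K556R value was 0.03. Of the Scap exon bases, 13.2% also lie in 5830462I19Rik on the opposite strand, and the labels do not say whether the libraries keep strand, so reads there cannot be assigned with certainty.

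Mbtps1 (ENSMUSG00000031835, chromosome 8, 119508156 to 119558735, minus strand), the site-1 protease that makes the first cut, had the narrowest spread of the set relative to its level. K556R refed livers had 71.6, 74.9, 71.5 and 73.3 CPM in batch 1 and 74.5, 67.6, 66.8 and 69.3 CPM in batch 2. K556R fasted livers had 79.6, 79.4, 79.4 and 75.7 CPM in batch 1 and 83.1, 82.6 and 82.4 CPM in batch 2, all above every refed library. It fell by 0.17 on the log2 scale in K556R livers (SE 0.0444, edgeR adjusted p = 0.00685), with -0.10 in batch 1, where it was not called, and -0.27 in batch 2. With no filter on low counts the value was -0.17 and was not called (edgeR adjusted p = 0.0783). WT refed livers ran from 66.8 to 81.2 CPM (median 77.4) and WT fasted livers from 77.0 to 85.9 CPM (median 80.6), with a log2 fold change of -0.09 (edgeR adjusted p = 0.221). The refeeding change of Mbtps1 did not differ between the genotypes beyond its error (-0.08, SE 0.0643).

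Mbtps2 (ENSMUSG00000046873, chromosome X, 157535371 to 157598715, minus strand), the site-2 protease, was the least abundant member. It ran from 8.69 to 12.9 CPM (median 10.1) in K556R refed, from 8.57 to 14.1 CPM (median 11.4) in K556R fasted, from 8.35 to 10.3 CPM (median 9.33) in WT refed and from 9.29 to 13.1 CPM (median 10.6) in WT fasted livers. The log2 fold change was -0.09 (adjusted p = 0.538) in K556R livers and -0.22 (adjusted p = 0.11) in WT livers by edgeR. Without WT fasted replicate 3 of batch 1 the WT value was -0.26 and passed (edgeR adjusted p = 0.0378). Since 28.4% of its exon bases also belong to Yy2 on the same strand, its reads and those of Yy2 cannot be fully told apart. Counts ran from 125 to 319 a library.

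Mlxipl (ENSMUSG00000005373, chromosome 5, 135089890 to 135138382, plus strand) encodes ChREBP, and the isoforms from both of its printed starts are summed in these counts. K556R refed livers had 398, 335, 309 and 535 CPM in batch 1 and 278, 396, 479 and 481 CPM in batch 2. K556R fasted livers had 179, 195, 257 and 214 CPM in batch 1 and 371, 446 and 363 CPM in batch 2. In batch 1 every K556R refed library was above every K556R fasted library, and in batch 2 the groups overlapped. WT refed livers had 361, 376 and 350 CPM in batch 1 and 453, 446 and 354 CPM in batch 2. WT fasted livers had 231, 263, 264 and 231 CPM in batch 1 and 324, 257, 363 and 373 CPM in batch 2, with overlap in batch 2. The edgeR log2 fold change was 0.50 (SE 0.141, adjusted p = 0.0136) in K556R livers and 0.45 (SE 0.145, adjusted p = 0.0438) in WT livers. In K556R livers it was 0.91 in batch 1 and 0.03 in batch 2, and in WT livers 0.56 in batch 1 and 0.34 in batch 2. The K556R call was lost in batch 2 alone, with no batch term (0.47), with only the 2 groups compared (0.51) and with the replicate block (0.47). The WT call was lost in batch 2 alone, with no batch term (0.44) and with the replicate block (0.50). The K556R call held in all 29 fits that left out 1 library, with values from 0.39 to 0.60, and the WT call in 19 of 29, with edgeR adjusted p up to 0.0985. The WT call was lost without any 1 of WT fasted replicates 1, 2 and 4 of batch 1 and 1 and 2 of batch 2, or WT refed replicates 1, 2 and 3 of batch 1 and 1 and 2 of batch 2.

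Nr1h3 (ENSMUSG00000002108, chromosome 2, 91184061 to 91202834, minus strand) encodes LXRalpha, the main LXR of hepatocytes. It ran from 112 to 130 CPM (median 125) in K556R refed, from 99.9 to 127 CPM (median 108) in K556R fasted, from 115 to 147 CPM (median 125) in WT refed and from 104 to 129 CPM (median 109) in WT fasted livers. The groups overlapped in both genotypes. It rose by 0.19 on the log2 scale in WT livers (SE 0.061, edgeR adjusted p = 0.0391), and its value in K556R livers was 0.16 (SE 0.0587, adjusted p = 0.0696). The WT value was 0.15 in batch 1 and 0.24 in batch 2, called in neither alone, and the WT call was also lost with no filter (0.20), with no batch term (0.19), with only the 2 groups compared (0.20) and with the replicate block (0.19). The K556R value was 0.22 in batch 1 and 0.06 in batch 2. The WT call held in 20 of 29 fits with 1 library left out, with edgeR adjusted p up to 0.117. It was lost without any 1 of WT fasted replicates 1, 2 and 4 of batch 1 and 2, 3 and 4 of batch 2, or WT refed replicates 2 and 3 of batch 1 and 1 of batch 2. The K556R value passed without K556R fasted replicate 2 of batch 2 (0.20, adjusted p = 0.0275), K556R refed replicate 1 of batch 2 (0.18, adjusted p = 0.0336) or WT fasted replicate 3 of batch 1 (0.16, adjusted p = 0.037) in edgeR.

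Nr1h2 (ENSMUSG00000060601, chromosome 7, 44549616 to 44553951, minus strand) encodes LXRbeta, which is expressed in most tissues. It ran from 25.9 to 36.6 CPM (median 32.2) in K556R refed, from 32.1 to 36.3 CPM (median 34.9) in K556R fasted, from 27.1 to 37.7 CPM (median 34.4) in WT refed and from 32.2 to 49.0 CPM (median 38.2) in WT fasted livers. The log2 fold change was -0.12 (adjusted p = 0.333) in K556R livers and -0.22 (adjusted p = 0.0853) in WT livers by edgeR. The WT value passed without WT fasted replicate 4 of batch 2 (-0.25, edgeR adjusted p = 0.0421) or WT refed replicate 2 of batch 1 (-0.26, adjusted p = 0.047). The point estimates of both LXR genes thus had opposite signs in both genotypes, and the difference between the LXR genes was not tested.

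**Figure D2:**
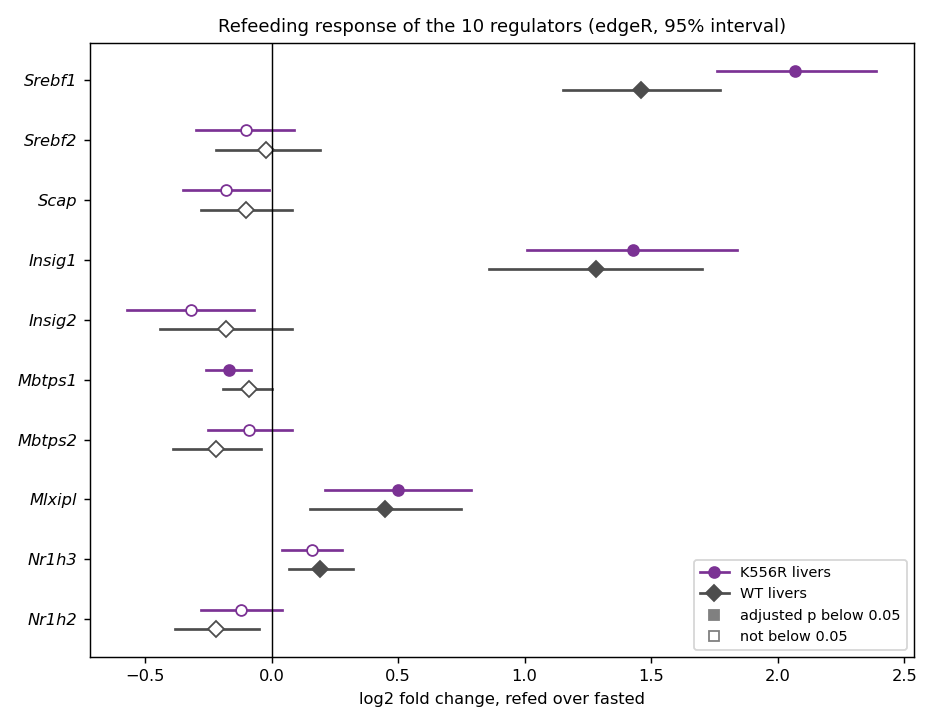
Log2 fold change of refed over fasted livers for each regulator in K556R livers (circles, upper of each pair) and WT livers (diamonds), with 95% intervals from the edgeR fit. Filled symbols have an adjusted p below 0.05. The intervals of Srebf1 and Insig1 began at 0.86 or higher in both genotypes, while the other 8 members stayed between -0.57 and 0.79.

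No member was called for genotype. Over all genes tested, 0.103% were called between K556R and WT livers in the fasted state, 0% in the refed state, 1.24% for the mean of both states and 0% for the difference in refeeding response. Among the members, 2 had an unadjusted p below 0.05 in the fasted state, 1 in the refed state, 1 for the mean of both states and 1 for the difference in response, and DESeq2 also called none of the 10 in these comparisons. Over all 15603 genes, 1479 had an unadjusted edgeR p below 0.05 in the fasted state and 1319 in the refed state. There were 2291 such genes for the mean of both states and 440 for the difference in response. DESeq2 called 45 genes in the refed comparison and 0 for the difference in response.

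Srebf1 had the largest fasted genotype value. K556R fasted livers ran from 132 to 227 CPM (mean 172 ± 33.3, SD, n = 7) and WT fasted livers from 200 to 286 CPM (mean 233 ± 31.2, SD, n = 8). The groups overlapped only through the highest K556R libraries, at 201 and 227 CPM. The log2 fold change was -0.41 (95% interval -0.71 to -0.11, SE 0.146), with an unadjusted p of 0.00865 and an edgeR adjusted p of 0.349. It was -0.43 in batch 1 and -0.43 in batch 2. In the refed state, K556R livers averaged 760 ± 265 CPM (SD, n = 8) and WT livers 655 ± 207 CPM (SD, n = 6), with a log2 fold change of 0.20 (95% interval -0.11 to 0.51, edgeR adjusted p = 0.75). That refed value was 0.09 without K556R refed replicate 3 of batch 2 and 0.34 without WT refed replicate 2 of batch 2, the ends of its range with 1 library left out. The difference between the refeeding responses of Srebf1 in K556R and in WT livers was 0.62 on the log2 scale (SE 0.211, 95% interval 0.18 to 1.05). It was 0.53 in batch 1 and 0.71 in batch 2. The edgeR p was 0.00687 unadjusted and 1.0 with adjustment over all genes, so the difference did not pass.

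The K556R over WT value of Insig1 was 0.31 in refed livers (95% interval -0.12 to 0.73) and 0.16 in fasted livers (-0.25 to 0.56), neither of them called. The refed value was -0.06 in batch 1 and 0.69 in batch 2, and it was 0.19 without WT refed replicate 1 of batch 2 and 0.57 without WT refed replicate 3 of batch 1. The fasted value was 0.01 without K556R fasted replicate 2 of batch 1. The value of Mbtps2 in refed livers was 0.18 (unadjusted p = 0.0448, edgeR adjusted p = 0.575), with 0.32 in batch 1 and 0.03 in batch 2. That of Nr1h2 in fasted livers was -0.17 (unadjusted p = 0.0402, edgeR adjusted p = 0.503), with -0.22 in batch 1 and -0.09 in batch 2, and it was -0.10 without WT fasted replicate 3 of batch 1. Its highest WT fasted library was 49.0 CPM. For the other 6 members, the fasted and refed genotype values ran from -0.12 to 0.05. Their 95% intervals, each for 1 gene in 1 state over both batches, lay between -0.37 and 0.35. Larger changes are not excluded, since the batches differed. Fasted Insig2 was 0.27 in batch 1 and -0.29 in batch 2, and fasted Mlxipl was -0.23 in batch 1 and 0.27 in batch 2.

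**Figure D3:**
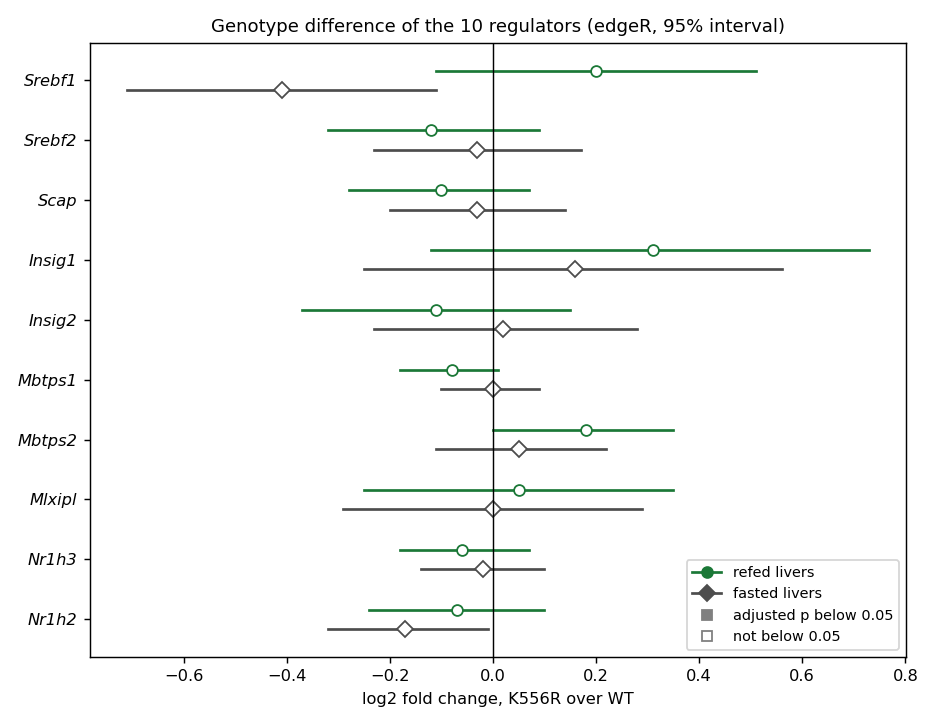
Log2 fold change of K556R over WT for each regulator in refed livers (circles, upper of each pair) and fasted livers (diamonds), with 95% intervals from the edgeR fit. Every symbol is open, since no adjusted p was below 0.05, and the fasted Srebf1 interval, from -0.71 to -0.11, was the farthest from 0.

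The batches differed in the members themselves. Comparing batch 2 with batch 1 in a model with all groups, added after the values were seen, 5 of the 10 members were called, against 22.1% of all genes. Srebf1 was 0.39 higher (edgeR adjusted p = 0.0081), Mlxipl 0.39 higher (0.0056) and Scap 0.27 higher (0.00124) in batch 2, and Insig2 was 0.61 lower (value -0.61, 4.77e-06) and Mbtps2 0.24 lower (value -0.24, 0.00304). What a batch stands for is not given beyond its number. The refeeding response of Mlxipl in K556R livers differed between the batches by -0.84 (batch 2 minus batch 1, SE 0.238, edgeR adjusted p = 0.0452), and 3.54% of all genes were called for this difference in K556R livers. Of the 10 members, 5 had an unadjusted edgeR p below 0.05 there, Mlxipl with Srebf1 (0.66), Srebf2 (0.49), Scap (-0.42) and Insig2 (0.52), and Mlxipl alone passed the adjustment. Over all 15603 genes, 3095 had an unadjusted edgeR p below 0.05 for this difference in K556R livers. In WT livers no member differed in this way and 0% of all genes were called by edgeR, with 1355 genes at an unadjusted p below 0.05. Mbtps1 was the member with an unadjusted edgeR p below 0.05 there, at -0.21 (adjusted p = 0.45).

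**Figure D4:**
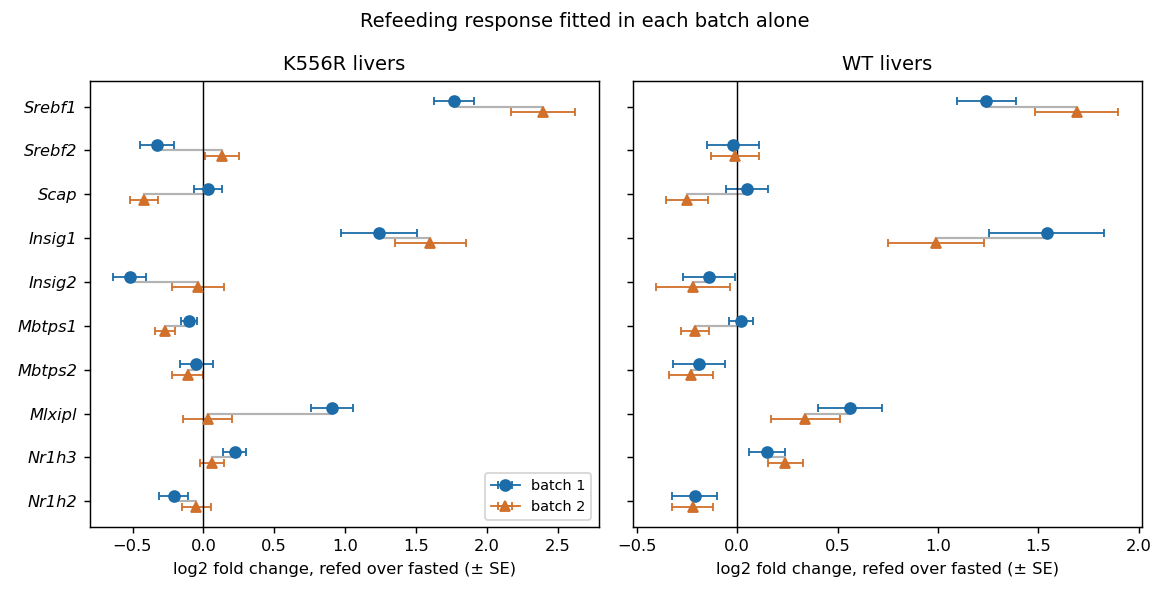
Refeeding log2 fold change of each regulator fitted in batch 1 alone (circles) and in batch 2 alone (triangles), with its SE, in K556R livers on the left and WT livers on the right. Srebf1 and Insig1 were positive in both batches of both genotypes, and Mlxipl in K556R livers was 0.91 in batch 1 and 0.03 in batch 2.

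Levels were compared between members per kilobase of annotated exon. Over all 29 libraries, Insig2 was highest, with a geometric mean of 157 CPM per kb, followed by Srebf1 at 64.2, Mlxipl at 59.2, Insig1 at 55.4 and Nr1h3 at 46.4 CPM per kb. A lower tier held Scap at 11.3, Nr1h2 at 10.2, Srebf2 at 8.92, Mbtps1 at 7.27 and Mbtps2 at 1.04 CPM per kb. The step from Nr1h3 to Scap was present in all 29 libraries, and so was that from Mbtps1 to Mbtps2. Insig2 exceeded Srebf1 in 23 of 29 libraries, Srebf1 exceeded Mlxipl in 16, Mlxipl exceeded Insig1 in 16 and Insig1 exceeded Nr1h3 in 15, so the order within the upper tier was not fixed. Srebf1 ranked second refed in both genotypes, at 135 ± 47.1 CPM per kb in K556R and 116 ± 36.7 in WT livers, but 5th in K556R fasted livers, at 30.5 ± 5.92, and 4th in WT fasted livers, at 41.4 ± 5.54 CPM per kb (SD). Srebf1 thus stood above Srebf2, at 8.43 ± 0.904 CPM per kb in K556R refed and 9.17 ± 1.63 in WT refed livers, in every group.

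Lists of partners and targets, chosen with earlier results of these data known, were counted in the same fit. The median over all genes was 0.009 in K556R livers and 0.001 in WT livers for refeeding. Shares called below stand against 15.4% of all genes in K556R livers and 10.7% in WT livers. Of 17 SREBP-1 targets, 10 rose and 0 fell in K556R livers (median log2 fold change 1.18, 58.8% called). In WT livers 8 rose and 0 fell (median 0.78, 47.1% called). Mid1ip1, which helps acetyl-CoA carboxylase form polymers, rose by 2.91 in K556R and 2.57 in WT livers, and Fasn, the fatty acid synthase, by 3.08 in K556R and 2.15 in WT livers. Acly, which makes cytosolic acetyl-CoA, rose by 2.21 in K556R and 1.43 in WT livers, and the lipid droplet protein gene Pnpla3 by 4.32 in K556R and 3.18 in WT livers. The desaturase Scd1, chosen for naming after its values were seen, did not pass in either (0.53 in K556R and 0.14 in WT livers). The list median was 0.63 in batch 1 and 1.23 in batch 2 of K556R livers, and 0.65 in batch 1 and 0.34 in batch 2 of WT livers.

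Of 21 SREBP-2 targets, 11 rose and 0 fell in K556R livers (median 0.76, 52.4% called). In WT livers 14 rose and 0 fell (median 0.82, 66.7% called). Srebf2 itself did not pass in either genotype. Mvd, of the mevalonate pathway, rose by 2.14 in both, and Sc5d, a late enzyme of cholesterol synthesis, by 1.01 in K556R and 0.84 in WT livers. The WT count rested in part on 1 library: without WT refed replicate 3 of batch 1, which had the highest Insig1 of that group (476 CPM) and the highest Srebf2 (85.6 CPM), 6 of 21 rose and the median was 0.54. The batch medians were 0.45 in batch 1 and 1.08 in batch 2 of K556R livers, and 1.09 in batch 1 and 0.49 in batch 2 of WT livers.

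Of 13 ChREBP targets, 8 rose and 1 fell in K556R livers (median 0.39, 69.2% called). In WT livers 3 rose and 1 fell (median 0.19, 30.8% called). Tkfc, of fructose breakdown, rose by 0.94 in K556R and 0.61 in WT livers. Arrdc4 rose by 0.44 in K556R and 0.57 in WT livers, and Gckr by 0.32 in K556R and 0.20 in WT livers. Txnip, a glucose-responsive ChREBP target in many cells, fell by 1.14 in K556R and by 0.91 in WT livers. Of 4 ChREBP partners, 2 rose and 1 fell in both genotypes (75% called in each). Mlx, the obligate partner of ChREBP, rose by 0.37 in K556R and 0.39 in WT livers. Hcfc1 rose by 0.33 in K556R and 0.36 in WT livers. The ChREBP relative Mlxip fell by 0.51 in K556R and by 0.50 in WT livers.

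Of 13 LXR targets, 0 rose and 2 fell in K556R livers (median -0.06) and 0 rose and 3 fell in WT livers (median -0.11). These are 15.4% of the list in K556R livers, the same as the 15.4% of all genes called, and 23.1% in WT livers, against 10.7% of all genes. Npc1, which moves cholesterol out of lysosomes, fell by 0.51 in K556R and by 0.52 in WT livers, and Abcg8, a part of the sterol exporter to bile, by 0.55 in K556R and by 0.48 in WT livers. Lpcat3, a phospholipid remodelling enzyme, fell by 0.29 in WT livers and was -0.07 in K556R livers, where it did not pass. Of 11 LXR partners and co-regulators, 1 rose and 5 fell in K556R livers (54.5% called). In WT livers 1 rose and 2 fell (27.3% called). Tbl1xr1, of the NCoR complex, fell by 0.89 in K556R and by 0.73 in WT livers, and Rxra, the dimer partner of both LXRs, by 0.35 in K556R and by 0.22 in WT livers. Rxrg rose by 0.48 in K556R livers. In the WT comparison, 1 of the 11 was called without WT refed replicate 2 of batch 1.

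Of 20 genes for SREBP handling and transport from the endoplasmic reticulum, 5 rose and 6 fell in K556R livers (55% called). In WT livers 2 rose and 4 fell (30% called). The list median was 0.01 in K556R livers and 0.03 in WT livers. Sec23b, a coat protein of vesicles that leave the endoplasmic reticulum, rose by 0.43 in K556R and 0.41 in WT livers. Erlin1 rose by 0.33 in K556R and 0.44 in WT livers. The coat protein gene Sec24d fell by 0.27 in K556R and by 0.25 in WT livers, and March6, a ubiquitin ligase that acts on squalene epoxidase, by 0.45 in K556R and by 0.37 in WT livers. No gene of these 7 lists was called between the genotypes in the fasted state, in the refed state or in the difference of response.

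Among all tested genes, those whose level followed each member most closely were named by the Pearson r of log2 CPM centred on batch over the 29 libraries. These values carry no test. They describe libraries that share a diet but differ in feeding state. Srebf1 was followed most closely by Mid1ip1 (r = 0.96, Spearman rho = 0.90), Fasn (0.95) and Tuba1c (0.95). After centring on group as well as batch, r with Srebf1 was 0.69 for Mid1ip1, 0.60 for Fasn and 0.38 for Tuba1c. Insig1 was followed most closely by Sc5d (r = 0.97), which kept 0.88 within groups. Mlxipl was followed by Ern1 (r = 0.92), Col27a1 (0.89) and Fkbp4 (0.89). Mbtps1 was followed by Brap (0.89), Sun2 (0.89) and Irs2 (0.88), and Nr1h3 by Fkbp4 (0.85), Arf5 (0.84) and Agpat2 (0.84). For Scap the closest gene was Plxnb2 (0.87), for Nr1h2 Dctn1 (0.82), for Mbtps2 Rab10 (0.80), for Insig2 Ctsl (0.79) and for Srebf2 Tecr (0.77).

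**Figure D5:**
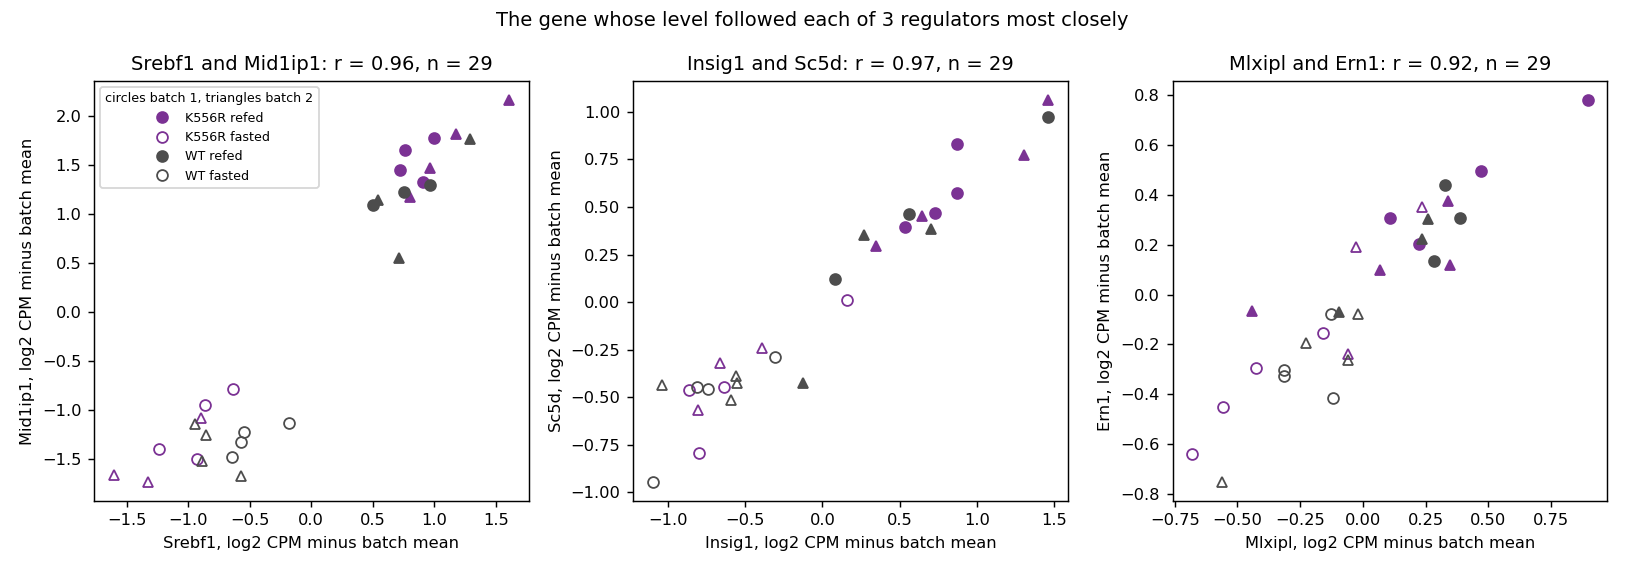
Log2 CPM, centred on the batch mean, of Srebf1, Insig1 and Mlxipl (horizontal axes) and of the gene closest to each (vertical axes) in the 29 libraries. Filled symbols are refed and open symbols fasted livers, K556R in purple and WT in grey, circles batch 1 and triangles batch 2. Srebf1 fell into a refed and a fasted cluster, while Insig1 and Mlxipl ran over a continuous range.

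Between members, Srebf1 and Insig1 had r = 0.87 over the 29 libraries and 0.52 within groups. Mlxipl and Nr1h3 had r = 0.74 and 0.54 within groups. Insig2 ran opposite to Mlxipl (r = -0.66, -0.40 within groups) and to Nr1h3 (-0.64, -0.46 within groups). Srebf2 and Insig1 had r = 0.04 over all libraries and 0.59 within groups.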

How the data were processed

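Counts per gene were deposited by the authors as raw whole numbers in 1 table of 29 libraries. Per the submitters' processing notes, reads were handled with tools that include STAR and HTSeq on build mm10, with versions not given in the sources used here. The strand setting is not given either. Here, genes were kept by filterByExpr (minimum count 10, minimum total 15), scaled by TMM and tested with edgeR 4.0.16 (R 4.3.3) in a quasi-likelihood model with a coefficient for each group and a term for batch, adjusted by Benjamini-Hochberg over 15603 genes. The standard error is that implied by the F statistic, log2 CPM has a prior count of 2, and fits were tested on simulated data. Gene models are GENCODE M21 on GRCm38. Alternatives were RLE scaling, no filter, no batch term, each batch alone, only the groups compared, a replicate block, DESeq2 1.42.0 and leaving out each library. Library totals of 14385218 to 27278251 set the counting precision. The members and the gene lists were chosen with earlier results of these data known. Named were all 10 members, Prox1, the 3 list genes with the smallest p in a comparison, and the 3 genes closest to each member, a few of which are not reported here; any other is marked as chosen later.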

Additional observations from a re-analysis of the deposited data

Results flagged for a closer look

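In K556R fasted livers, Insig1 was 194 CPM in replicate 2 of batch 1, far above the other 6 libraries of the group, which ran from 95.1 to 129 CPM. Without that library the refeeding log2 fold change of Insig1 in K556R livers was 1.58, and it was still called.

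In WT fasted livers, replicate 3 of batch 1 stood apart in both LXR genes: Nr1h3 was 129 CPM, against 104 to 116 CPM in the other libraries of the group, and Nr1h2 was 49.0 CPM, against 32.2 to 39.8 CPM. The same library had the highest summed macrophage markers of all libraries (746 CPM, over 9 of 9 markers) and the highest summed lymphocyte markers (11.8 CPM, over 6 of 7). The part of those cells in the LXR values was not tested. Without this library, the WT refeeding value was 0.24 for Nr1h3 (edgeR adjusted p = 0.00543) and -0.15 for Nr1h2 (adjusted p = 0.198). Over the members, 40 sets of libraries were examined for such a value and 3 were found, where chance gives about 1 in 20.

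The refeeding response of Mlxipl in K556R livers differed between the batches by -0.84 (batch 2 minus batch 1, SE 0.238, edgeR adjusted p = 0.0452).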

How the results depend on the processing

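Srebf1 and Insig1 kept their direction and their call for refeeding in both genotypes under every alternative tried: RLE scaling, no filter on low counts, no batch term, each batch alone, only the 2 groups compared, the replicate block, DESeq2 and each of 29 libraries left out. In WT livers, 2 of 10 members were called for refeeding with no batch term, 2 in batch 2 alone and 2 with the replicate block, and 2 to 5 over the fits with 1 library left out. Mlxipl and Nr1h3 accounted for the losses. With the replicate block, Mlxipl in WT livers was 0.496 and Nr1h3 0.193, and Mlxipl in K556R livers was 0.467, none of them called. The labels give the replicate number no meaning. Of 40 same-numbered pairs, 5 had deviations correlated over 0.1 (range -0.39 to 0.36). These pairs were not compared with differently numbered pairs, so they cannot show whether the libraries are paired. Mlxipl in K556R livers was also lost with no batch term (0.472), in batch 2 alone (0.035) and with only the 2 groups compared (0.509). Mbtps1 in K556R livers was lost with no filter (-0.172) and in batch 1 alone (-0.097). Nr1h3 in WT livers was also lost with no filter (0.198) and with only the 2 groups compared (0.197). The cause of these losses was not tested. Each batch alone has fewer libraries, and the fit without the filter has more genes.

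Counts of calls over all genes moved most for genotype. In the fasted comparison, 16 genes became 45 with no filter, 2 with no batch term, 33 in batch 1 alone, 0 in batch 2 alone, 26 with only the 2 groups, 2 with the replicate block and 89 by DESeq2, and 2 to 46 over the fits with 1 library left out. In the refed comparison, 0 became 10 with no filter, 5 in batch 1 alone, 7 in batch 2 alone and 45 by DESeq2, and 0 to 20 over the fits with 1 library left out. The mean of both states gave 98 with no batch term, 125 in batch 1 alone, 0 in batch 2 alone, 92 with the replicate block, 425 by DESeq2 and 116 to 309 with 1 library left out, against 194. The highest count of each of these ranges came without K556R refed replicate 4 of batch 1. For refeeding, batch 1 alone gave 1497 calls in K556R livers, and in WT livers 846 in batch 1 alone and 592 in batch 2 alone.

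Some values that had not passed the test changed sign. In batch 1 alone, Scap was 0.028 for refeeding in K556R and 0.05 in WT livers, Mbtps1 0.021 for refeeding in WT livers, Srebf2 0.014 and Mlxipl -0.227 for genotype fasted, Insig1 -0.058 for genotype refed and -0.301 for the difference in response. In batch 2 alone, Srebf2 was 0.134 for refeeding in K556R livers. For genotype fasted in batch 2 alone, Scap was 0.105, Insig2 -0.29, Mbtps1 0.026, Mbtps2 -0.084 and Nr1h3 0.106. For genotype refed in batch 2 alone, Srebf2 was 0.052, Mlxipl -0.03 and Nr1h2 0.084, and for the mean of both states Mbtps2 was -0.025. Mbtps1 for genotype fasted was 0.001 with no filter and 0.003 with only the 2 groups, and Mlxipl for genotype refed was -0.006 with the replicate block. With 1 library left out, the fasted genotype value ran from -0.082 to 0.009 for Srebf2, -0.087 to 0.013 for Scap, -0.049 to 0.116 for Insig2, -0.014 to 0.013 for Mbtps1, -0.093 to 0.074 for Mlxipl and -0.055 to 0.024 for Nr1h3. The refed value of Mlxipl ran from -0.061 to 0.139 and the WT refeeding value of Srebf2 from -0.103 to 0.042. Of the 30 genes named as closest to the members, 16 were also named by Spearman's rho and 3 after centring on group as well as batch.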

Other observations

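Other list genes with the smallest p between the genotypes missed the threshold. Rxrg, an RXR isoform, was -0.36 in fasted K556R over WT livers (SE 0.104, edgeR adjusted p = 0.201), and Khk, the first enzyme of fructose breakdown, was -0.30 there (SE 0.0901, adjusted p = 0.227). In refed livers, Rxra was -0.21 (SE 0.0623, edgeR adjusted p = 0.286), and Elovl6, a fatty acid elongase, was 0.80 (SE 0.279, adjusted p = 0.421). Angptl8, of the genes kept to check feeding, was 0.97 there (SE 0.282, edgeR adjusted p = 0.286). It averaged 157 CPM in K556R refed and 78.8 CPM in WT refed livers. Apoe was -0.21 refed and -0.19 fasted, neither of them called. For the difference in refeeding response, Acaca was 0.60 (SE 0.265), Elovl6 0.83 (SE 0.385) and Fasn 0.92 (SE 0.438), each with an edgeR adjusted p of 1.0.

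Of the 8 genes kept to check feeding, 2 rose and 5 fell with refeeding in K556R livers (87.5% called, against 15.4% of all genes). In WT livers 2 rose and 4 fell (75% called, against 10.7% of all genes). Irs2, an insulin receptor substrate, fell by 1.46 in K556R and by 1.08 in WT livers.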
